A study of Mus musculus with 5 samples.

Results

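The genes that write, maintain and remove DNA methylation were read in sorted hair follicle stem cells of the mouse after loss of the Polycomb complex PRC1. They are Dnmt1, Dnmt3a and Dnmt3b, which encode DNA methyltransferases, Uhrf1 and Uhrf2, which encode a maintenance cofactor and its paralog, and Tet1, Tet2 and Tet3, which encode enzymes that oxidise 5-methylcytosine. The genes were taken by symbol, and all 8 were found once each among 55357 genes of the deposited table. All 8 had enough reads to be tested, among 15665 tested genes. Both groups were mice of genotype Ring1a-/-, Ring1bflox/flox, so both groups are labelled as Ring1a mutants. PRC1 i2KO mice also carried K15-CrePR1, a Cre that a keratin 15 promoter drives and RU-486 activates, so Cre itself is present in 1 group only. Both groups received 1% RU-486 topically each day, over 10 days starting at postnatal day 50, and skin was collected 15 days after the end, at day 75. Epidermal cells were sorted by EpCAM, α6-integrin and CD34 and against Sca1, and polyadenylated RNA was sequenced from 2 Control libraries (replicates 1 and 3) and 3 PRC1 i2KO libraries (replicates 1, 2 and 3). Whether the libraries of a group are separate animals is not in the labels. The p-values therefore measure the spread of these libraries alone, and that spread may be technical.

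DNA methylation in mammals sits mostly on cytosines of CpG pairs. After replication the new strand is unmethylated, UHRF1 binds such half-methylated sites and ubiquitinates histone H3, and DNMT1 then copies the mark. DNMT3A and DNMT3B place methylation on sites that had none, while the TET enzymes start its removal by oxidation, which base excision repair or dilution at replication can complete. In hair follicle stem cells, which rest for long periods and then divide in bursts, maintenance is tied to the cell cycle because it follows the replication fork.

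Libraries held from 8270419 to 32463173 estimated reads, the shallowest and the deepest both being controls. Levels are given as CPM, the reads of a gene relative to the library's total after scaling between libraries. A gene is said to rise or fall where its adjusted p from edgeR (quasi-likelihood) is under 0.05, which held for 33.9% of all tested genes, with 18.8% rising and 15.1% falling in PRC1 i2KO. Rnf2, the gene of Ring1b, stood between 57.7 and 67.9 CPM in Control and between 46.6 and 50.2 CPM in PRC1 i2KO (edgeR adjusted p = 0.0363). Leaving out replicate 1 of Control, or replicate 1 or 2 of PRC1 i2KO, ended that call (edgeR adjusted p from 0.0993 to 0.251). Ring1, the gene of Ring1a, had reads in every library, at 30.3 and 27.5 CPM in Control and 19.6, 28.6 and 24.8 CPM in PRC1 i2KO, with overlap (edgeR adjusted p = 0.36), although both groups carry the label Ring1a-/-. Reads summed over a gene can come from outside a deleted part, so neither gene checks the genotype. The labelled cell type was checked against 10 bulge markers, whose summed level ran from 27041 to 29974 CPM in Control and from 7460 to 11086 CPM in PRC1 i2KO. Krt15 and Col17a1 made up most of that sum in every library. Of the 10 markers 8 fell, while Sox9 and Itga6 were not called (edgeR adjusted p = 0.178 and 0.186). Cd34, a surface marker of the sort, stood at 11.0, 12.3 and 37.2 CPM in PRC1 i2KO against 1548 and 1697 CPM in Control, so the defining marker was low in the cells labelled with it. PRC1 i2KO replicate 3 stood apart from the other PRC1 i2KO libraries, with the highest bulge sum and the lowest mitotic sum of the group.

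Other cell states moved alongside the genotype. The 10 sebaceous markers summed to at most 255 CPM in Control and at least 2683 CPM in PRC1 i2KO, and all 10 rose. The 10 suprabasal markers summed to at most 1289 and at least 2789 CPM, and all 10 rose. Of 10 markers of upper follicle and basal epidermis 7 rose and Krt5 fell, with sums of 17066 to 19855 CPM in Control and 15810 to 18505 CPM in PRC1 i2KO. Krt5 made up 14045 and 16040 CPM of these sums in Control and 6046 to 9547 CPM in PRC1 i2KO. Krt14, not called, added 2714 to 3538 CPM over the libraries. The sums therefore say little of the 7 that rose, such as Krt79, at 46.6 and 59.8 CPM in Control and 3087 to 3631 CPM in PRC1 i2KO. The 16 mitosis genes all rose, from sums of 32.3 to 56.9 CPM to sums of 481 to 728 CPM. Of 7 melanocyte genes Dct and Kit rose (8.51-fold and 9.49-fold) and Mitf fell. Their sums were 157 to 169 CPM in Control and 70.8 to 75.8 CPM in PRC1 i2KO, of which Mitf made up 151 to 163 and 39.1 to 41.2 CPM. Sums of 6 immune markers were 21.4 to 26.3 CPM and 66.9 to 101.5 CPM, nearly all of it Cd74, while Lyz2 had 0 reads in every library. Sums of 6 fibroblast and papilla markers (Sox2 at 0) were 13.7 to 14.6 CPM and 6.16 to 9.53 CPM, with Col1a1 and Pdgfra falling and Dcn rising from 2 reads (a ratio of 33.5 with a counting interval from 8.98 to 281). Sums of 4 endothelial markers stayed at or below 5.11 CPM. Fewer cells of a type and less RNA per cell cannot be told apart in such bulk samples, and the part of these shifts in the results was not tested.

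Of the 8 genes, Uhrf1, Dnmt1 and Tet3 rose, none fell and 5 did not pass the test. That is 37.5% called, against 33.9% of all tested genes, so the share lies near the background. The median log2 fold change of the 8 genes was 0.31, against -0.0060 over all tested genes. All 3 rises kept their calls whichever single library was left out. On the deposited TPM, a level of transcripts scaled to the length of each gene, only Uhrf1 was called.

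**Figure D1:**
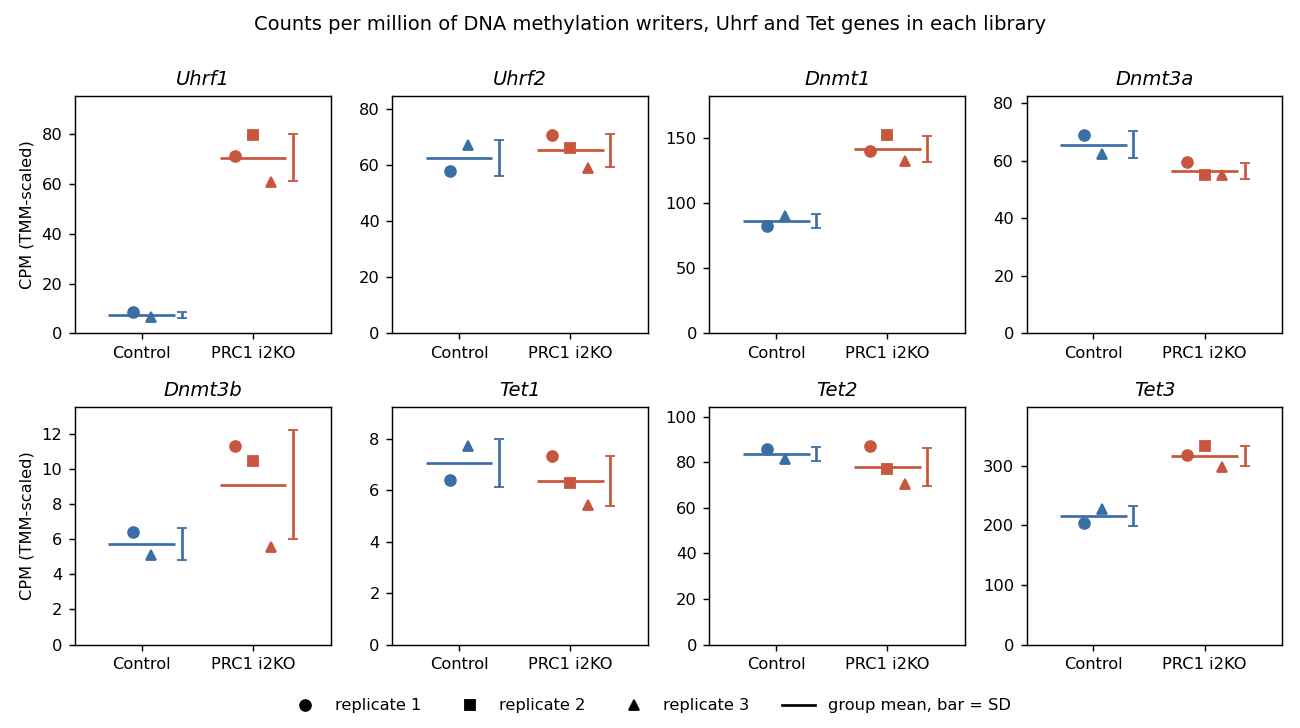
Level of each gene (y axis, CPM, from 0) in the 2 Control and 3 PRC1 i2KO libraries; symbols are replicates, lines group means and bars the SD. Uhrf1, Dnmt1 and Tet3 are higher in every PRC1 i2KO library, Dnmt3a is slightly lower in every one, and Dnmt3b of PRC1 i2KO replicate 3 (5.58 CPM) lies between the controls.

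Uhrf1 (ENSMUSG00000001228), which recruits DNMT1 to newly copied DNA, changed most among the 8 genes. Its level was 8.37 and 6.50 CPM in Control replicates 1 and 3 and 71.4, 79.7 and 60.8 CPM in PRC1 i2KO replicates 1, 2 and 3. Every PRC1 i2KO library was several times above both controls. The rise was 9.77-fold (log2 fold change 3.29, SE 0.19, edgeR adjusted p = 2.52e-06). With any 1 library left out the log2 fold change lay between 3.07 and 3.44.

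Dnmt1 (ENSMUSG00000004099), the maintenance methyltransferase, stood at 82.3 and 90.4 CPM in Control and at 139.8, 152.3 and 132.7 CPM in PRC1 i2KO. The groups did not overlap. That was so for 4 of the 8 genes, higher in PRC1 i2KO for Uhrf1, Dnmt1 and Tet3 and lower for Dnmt3a, and for 59.5% of all tested genes, 30% higher and 29.4% lower. The rise was 1.64-fold (log2 fold change 0.71, SE 0.11, edgeR adjusted p = 0.000834). On the deposited TPM it was 0.49 on the log2 scale and was not called (limma adjusted p = 0.0894).

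Uhrf2 (ENSMUSG00000024817), the paralog of Uhrf1, stood at 57.8 and 66.9 CPM in Control and at 70.6, 66.0 and 59.1 CPM in PRC1 i2KO. The groups overlapped, and the log2 fold change was 0.06 (SE 0.12, edgeR adjusted p = 0.762), a sign that turned without Control replicate 1 (-0.040) and on TPM (-0.023). The share of Uhrf1 in the summed TPM of Uhrf1 and Uhrf2 was 15.4% and 6.84% in Control and 45.8%, 48.0% and 46.8% in PRC1 i2KO (exact two-sided permutation p = 0.1, the smallest that 2 against 3 libraries allow). This and 11 further ratios and sums were compared in this way, and none had an adjusted p below 0.133.

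The promoters of the 3 genes that rose are shown because Uhrf1, Dnmt1 and 17 of 25 replication genes rose, by differing amounts. Whether they share a regulator was not tested. All 8 genes matched the RefSeq promoter table of build GRCm38.p6, with 13 windows of 300 bases, from 250 before to 50 after an annotated start. The deposited files name another build, so these coordinates are those of the RefSeq table only. Capitals mark a match on either strand to a word of the E2F consensus, which is TTTCCCGC, TTTCGCGC, TTTGCCGC or TTTGGCGC, and none of the matches overlap. E2F factors are the textbook activators of S phase genes.
Uhrf1 (chr17:56304063-56304362, plus strand): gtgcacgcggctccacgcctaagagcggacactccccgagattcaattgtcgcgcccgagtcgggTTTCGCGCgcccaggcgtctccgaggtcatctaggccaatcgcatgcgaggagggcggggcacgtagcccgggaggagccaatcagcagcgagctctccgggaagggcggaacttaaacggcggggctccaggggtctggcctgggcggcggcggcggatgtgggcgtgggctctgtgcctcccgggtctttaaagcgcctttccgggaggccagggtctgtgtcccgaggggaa
Dnmt1 (chr9:20952574-20952873, minus strand): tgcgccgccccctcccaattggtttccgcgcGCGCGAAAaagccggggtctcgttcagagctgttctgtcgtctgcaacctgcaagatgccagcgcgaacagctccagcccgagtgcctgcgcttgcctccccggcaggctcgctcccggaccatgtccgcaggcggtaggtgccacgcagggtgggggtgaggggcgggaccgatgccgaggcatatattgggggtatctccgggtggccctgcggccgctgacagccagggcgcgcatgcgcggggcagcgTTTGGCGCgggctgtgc
Tet3 (chr6:83441629-83441928, minus strand): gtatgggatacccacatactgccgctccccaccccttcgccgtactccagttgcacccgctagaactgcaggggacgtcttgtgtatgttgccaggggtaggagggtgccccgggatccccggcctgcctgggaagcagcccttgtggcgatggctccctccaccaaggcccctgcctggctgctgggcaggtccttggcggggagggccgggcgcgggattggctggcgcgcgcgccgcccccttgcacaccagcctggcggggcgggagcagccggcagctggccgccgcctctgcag
The Uhrf1 window has TTTCGCGC beginning 185 bases before the start. The Dnmt1 window has GCGCGAAA, the same word on the other strand, beginning 219 bases before the start, and TTTGGCGC beginning 34 bases into the transcript. Neither the Tet3 window nor the other 10 windows of the 8 genes, which include 1 further start of Uhrf1 and 2 of Dnmt1, held a match. Of 32851 windows in the table, 2.26% held at least 1 match, and of 27025 genes 2.6% had a match in any of their windows. Every word holds a CpG pair, and the share among windows equally rich in CpG pairs was not computed. A match describes these letters and not a bound site, and its absence says nothing of the factor. The windows shown held 33 CpG pairs for Uhrf1, 33 for Dnmt1 and 22 for Tet3, against a median of 7 over all windows. For Uhrf1 and Dnmt1 the window shown is the one with a match. The windows not shown held 12 CpG pairs for Uhrf1 and 2 and 12 for Dnmt1.

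Genes that act with UHRF1 and DNMT1 went the same way in part. Of 12 maintenance partners 5 rose, 1 fell and 6 did not pass, 50% called against 33.9% of all tested genes, with a median log2 fold change of 0.06. Cdca7l, a relative of the gene of the remodeller cofactor CDCA7, went from 5.42 and 4.95 CPM to 47.5, 46.9 and 38.9 CPM (log2 fold change 3.11, SE 0.18, edgeR adjusted p = 3.11e-06). Its fold lies next to that of Uhrf1. Cdca7 itself stood at 50.7 and 64.7 CPM in Control and at 61.7, 48.1 and 53.7 CPM in PRC1 i2KO. The groups overlapped for Cdca7, which was not called (log2 fold change -0.094, edgeR adjusted p = 0.668). Hells, the chromatin remodeller needed for methylation of repeats, went from 7.51 and 5.19 CPM to 34.8, 35.4 and 26.6 CPM (log2 fold change 2.39, SE 0.23, edgeR adjusted p = 5.6e-05). Pclaf, a PCNA-binding protein that UHRF1 ubiquitinates, went from 1.85 and 0.47 CPM to 27.7, 23.5 and 14.0 CPM (log2 fold change 4.61, SE 0.61, edgeR adjusted p = 0.00142). Its size depended on the controls, at 3.54 without Control replicate 3 and 5.51 without Control replicate 1. Lig1, the ligase of the lagging strand and a binding partner of UHRF1, rose 2.21-fold. Pcna, the replication clamp, rose 1.54-fold, a call lost without Control replicate 3 (edgeR adjusted p = 0.103). The member that fell was Zbtb24, a zinc finger gene mutated in a DNA hypomethylation syndrome, 1.65-fold lower and not called without Control replicate 3 (edgeR adjusted p = 0.0909).

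The rise of Uhrf1 was set beside 25 genes of DNA replication, of which 68% were called, against 33.9% of all tested genes. Of the 25 genes 17 rose and none fell, with a median log2 fold change of 1.05. Only 1 of them, Dtl, had a larger fold change than Uhrf1 (4.50). The log2 CPM of Uhrf1 minus the mean of the replication genes was -0.25 and -0.49 in Control and 1.47, 1.59 and 1.49 in PRC1 i2KO, a difference of 1.89 (exact permutation p = 0.1). Uhrf1 thus lay below the replication genes in both controls and above them in all PRC1 i2KO libraries. For Dnmt1 the same measure was 3.03 and 3.29 in Control and 2.44, 2.53 and 2.61 in PRC1 i2KO, a difference of -0.63 (exact permutation p = 0.1). Dnmt1 rose by less than most of these genes, since 9 of 25 had a smaller fold change than it. Mcm2 and Mcm5, subunits of the replicative helicase, went from 15.1 and 15.8 CPM to 70.3 to 73.6 CPM and from 7.75 and 10.9 CPM to 57.1 to 70.9 CPM. The mitosis genes had a median log2 fold change of 3.94, with Kif20a, Cdc20 and Ccnb1 at 4.31, 3.45 and 4.09.

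**Figure D2:**
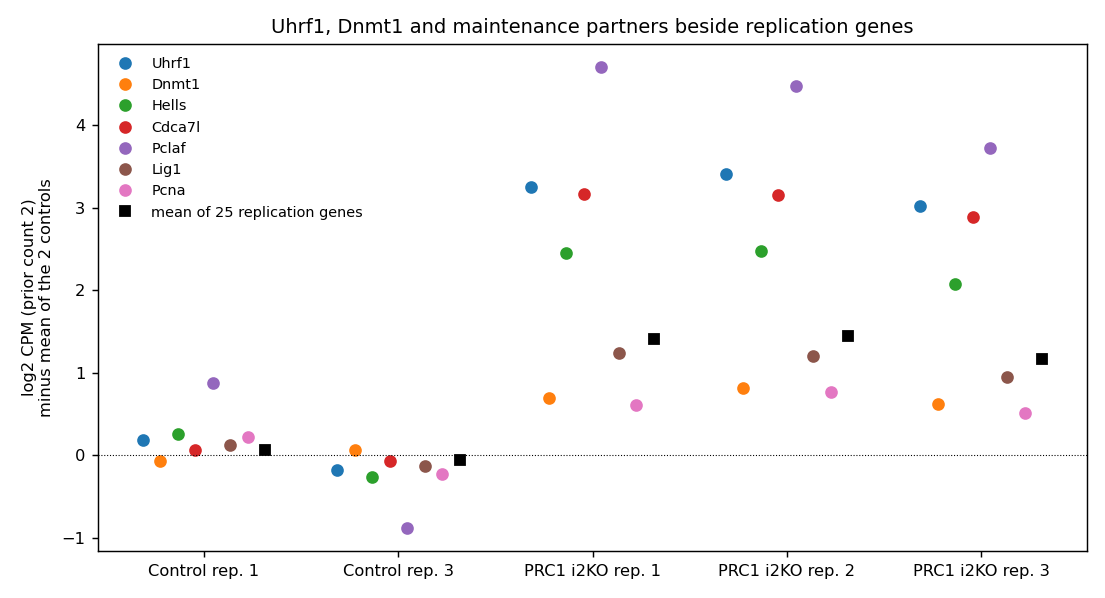
Change from the mean of the 2 controls (y axis, log2 CPM) of Uhrf1, Dnmt1 and the 5 partners that rose (circles) and of the mean of 25 replication genes (squares) in each library (x axis). Zbtb24, the called partner that fell (log2 fold change -0.73), and the partners not called are not shown. Uhrf1 lies above the replication mean and Dnmt1 below it in all 3 PRC1 i2KO libraries.

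Neither de novo methyltransferase passed the test. Dnmt3a (ENSMUSG00000020661) stood at 68.8 and 62.1 CPM in Control and at 59.6, 54.8 and 54.9 CPM in PRC1 i2KO. All PRC1 i2KO values were below both controls, but by little (log2 fold change -0.21, SE 0.11, edgeR adjusted p = 0.177). Dnmt3b (ENSMUSG00000027478) stood at 6.40 and 5.10 CPM in Control and at 11.3, 10.5 and 5.58 CPM in PRC1 i2KO (log2 fold change 0.67, SE 0.36, edgeR adjusted p = 0.18). Replicate 3 of PRC1 i2KO lay between the controls, and without it Dnmt3b was called (log2 fold change 0.94, edgeR adjusted p = 0.0275). The log2 CPM of Dnmt1 minus that of Dnmt3a was 0.26 and 0.54 in Control and 1.23, 1.47 and 1.27 in PRC1 i2KO, without overlap (exact permutation p = 0.1).

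Of 8 partners of de novo methylation, 7 had enough reads, and of these 3 rose, none fell and 4 were not called. Their median log2 fold change was 0.30, and 42.9% were called, against 33.9% of all tested genes. Dnmt3c, a rodent paralog of Dnmt3b active in male germ cells, had 0 reads. Dnmt3l, which encodes a catalytically inactive cofactor of DNMT3A known from germ cells and embryos, had 0 reads in both controls and 4, 43 and 15 reads in PRC1 i2KO replicates 1, 2 and 3. Against a floor of 3 reads summed over the Control group (0.0745 CPM) its pooled level of 1.24 CPM was at least 16.7-fold higher (edgeR adjusted p = 0.0156). The call was lost without Control replicate 3 (edgeR adjusted p = 0.111), where the bound was 3.36-fold. Replicate 2 of PRC1 i2KO held 43 of the 62 reads, and without it the bound was 8.91-fold. Without PRC1 i2KO replicate 2 or 3 the gene did not pass the filter on low counts and was not tested. With 0 Control reads Dnmt3l passed that filter through PRC1 i2KO alone, so its call is not independent of the filter. It is counted among the 3 that rose. Nsd2, a histone H3 lysine 36 methyltransferase, rose 1.88-fold from 36.3 to 43.1 CPM in Control to 59.5 to 85.4 CPM. Trim28, a corepressor of KRAB zinc finger proteins, was close to the threshold (1.24-fold, edgeR adjusted p = 0.0416). Leaving out any library but PRC1 i2KO replicate 3 ended its call (0.0761 to 0.262). Of these genes 1 was called when Control replicate 3 was left out, and 1 when PRC1 i2KO replicate 2 was.

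Among the Tet genes, Tet3 rose while Tet1 and Tet2 did not pass the test. Tet3 (ENSMUSG00000034832) stood at 203 and 227 CPM in Control and at 318, 332 and 298 CPM in PRC1 i2KO. The groups did not overlap, and the rise was 1.47-fold (log2 fold change 0.55, SE 0.11, edgeR adjusted p = 0.00297). On TPM it was 0.35 on the log2 scale and was not called (limma adjusted p = 0.145). Tet2 (ENSMUSG00000040943) stood at 85.8 and 81.4 CPM in Control and at 87.0, 76.9 and 70.3 CPM in PRC1 i2KO, with overlap (log2 fold change -0.10, SE 0.12, edgeR adjusted p = 0.551). Tet1 (ENSMUSG00000047146) stood at 6.40 and 7.71 CPM in Control and at 7.36, 6.30 and 5.42 CPM in PRC1 i2KO, also with overlap (log2 fold change -0.17, SE 0.29, edgeR adjusted p = 0.701). Tet1 rests on 52 to 248 reads per library. The share of Tet3 in the summed TPM of the Tet genes was 54.3% and 56.4% in Control and 64.0%, 66.1% and 68.9% in PRC1 i2KO (exact permutation p = 0.1). The summed TPM itself overlapped between groups, at 65.1 and 70.1 in Control and 72.0, 75.6 and 69.8 in PRC1 i2KO.

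Genes that act with or after the TET enzymes were called about as often as all genes. Of 21 genes of demethylation and base excision 7 rose, 1 fell and 13 did not pass, 38.1% called against 33.9% of all tested genes, with a median log2 fold change of 0.24. Cxxc4, whose protein binds unmethylated CpG and lowers TET2, had 0 reads in both controls and stood at 1.14, 1.27 and 1.16 CPM in PRC1 i2KO. Its pooled level of 1.202 CPM was at least 16.1-fold higher than the same Control floor (edgeR adjusted p = 0.00744). With 0 Control reads Cxxc4 passed the filter on low counts through PRC1 i2KO alone, where it is high. Its call is therefore not independent of that filter, and it is counted among the 7 that rose. Without Control replicate 3 the bound was 3.26-fold and the call was lost (edgeR adjusted p = 0.0632). Neil3, a DNA glycosylase, went from 0.98 and 0.28 CPM to 9.64, 10.9 and 6.48 CPM (log2 fold change 4.16, and 3.18 without Control replicate 3). Apex1, the endonuclease of abasic sites, went from 24.7 and 22.6 CPM to 59.5, 50.0 and 55.8 CPM (log2 fold change 1.22, SE 0.14, edgeR adjusted p = 0.000137). Idh1, the cytosolic isocitrate dehydrogenase that makes the TET cosubstrate 2-oxoglutarate, rose 2.01-fold. Idh2, its mitochondrial counterpart, fell 1.31-fold, a call that ended on leaving out Control replicate 3 (edgeR adjusted p = 0.282) or replicate 1 or 2 of PRC1 i2KO (0.123 and 0.129). The stress genes Gadd45a and Gadd45b rose 2.91-fold and 1.68-fold, and the repair scaffold gene Xrcc1 rose 1.35-fold. Gadd45b lost its call without replicate 3 of Control or replicate 1 or 2 of PRC1 i2KO (edgeR adjusted p from 0.0633 to 0.124). Xrcc1 lost it without either control or replicate 2 of PRC1 i2KO (0.0597 to 0.138). In all 4 were called on leaving out Control replicate 3, and 5 on leaving out PRC1 i2KO replicate 2.

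Among 9 readers of methylated DNA none rose, 3 fell and 6 were not called. That is 33.3% called, the share of all tested genes being 33.9%, with a median log2 fold change of -0.28. Zbtb4, a zinc finger protein that binds methylated CpG, went from 258 and 254 CPM to 103, 119 and 150 CPM (log2 fold change -1.04, SE 0.15, edgeR adjusted p = 0.000581). Zbtb38 fell 1.25-fold and was called only with all of Control replicates 1 and 3 and PRC1 i2KO replicates 1 and 2 present (edgeR adjusted p = 0.0445, and 0.11 to 0.198 without 1 of these).

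Genes that make and recycle S-adenosylmethionine, the methyl donor, and relatives of such genes went both ways. Among the 13 with enough reads 2 rose, 5 fell and 6 were not called, and their median log2 fold change was -0.23. That is 53.8% called, against 33.9% of all tested genes. Mat1a and Bhmt, known from liver, had 0 reads. Ahcyl2, a relative of the gene of adenosylhomocysteinase, went from 221 and 168 CPM to 73.1, 73.7 and 66.1 CPM (log2 fold change -1.45, SE 0.13, edgeR adjusted p = 2.85e-05). Ahcy, the gene of adenosylhomocysteinase itself, stood at 80.0 and 81.5 CPM in Control and at 101.9, 91.6 and 79.1 CPM in PRC1 i2KO. The groups overlapped for Ahcy, which was not called (log2 fold change 0.17, edgeR adjusted p = 0.329). Mtr, the methionine synthase, went from 42.3 and 43.6 CPM to 25.9, 26.1 and 28.4 CPM (log2 fold change -0.68, SE 0.13, edgeR adjusted p = 0.00329). Mat2a and Mat2b, the subunits of the methionine adenosyltransferase of most tissues, fell 1.37-fold and 1.34-fold. Mat2a was not called without Control replicate 1 or PRC1 i2KO replicate 2 (edgeR adjusted p = 0.141 and 0.0617). Mat2b kept its call only when PRC1 i2KO replicate 3 was the library left out (edgeR adjusted p from 0.056 to 0.139 for the others). Cbs, which draws homocysteine out of the cycle, rose 1.66-fold (not called without Control replicate 1, edgeR adjusted p = 0.0628). Shmt2, the mitochondrial serine hydroxymethyltransferase, rose 1.22-fold, and of the left-out libraries only PRC1 i2KO replicate 3 let its call stand (edgeR adjusted p from 0.0921 to 0.206 for the others). On leaving out Control replicate 1, 3 of these genes were called, on leaving out PRC1 i2KO replicate 1, 4, and on leaving out PRC1 i2KO replicate 2, 3. Over all 5 lists together, 43.5% of 62 tested genes were called, against 33.9% of all tested genes.

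**Figure D3:**
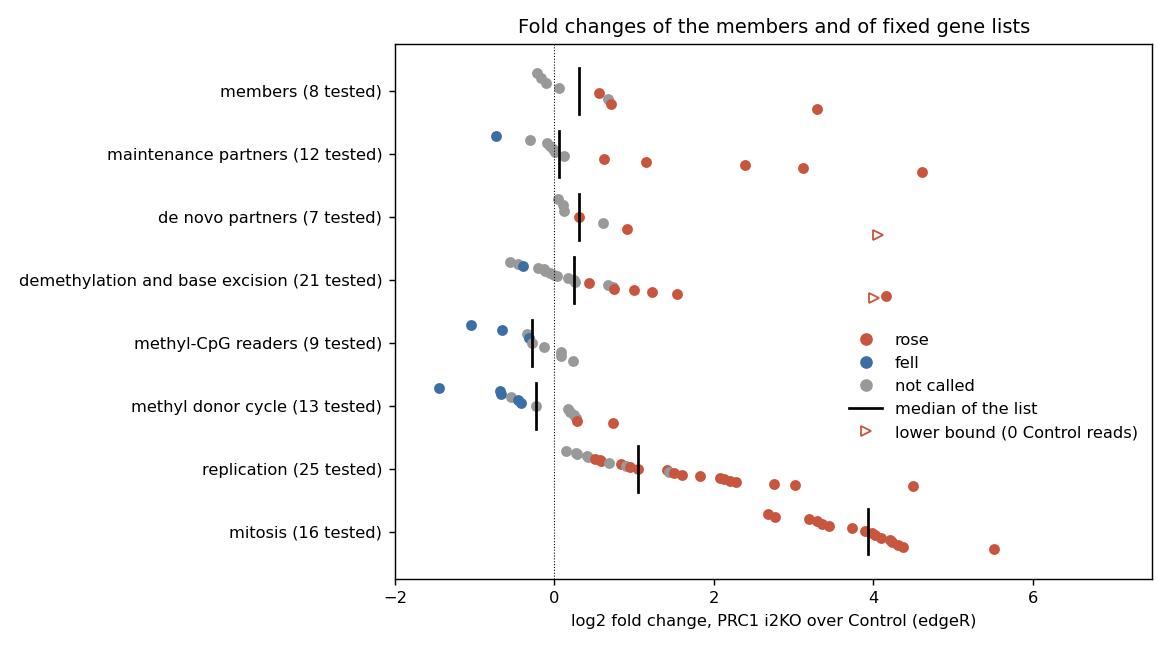
Fold change (x axis, log2, PRC1 i2KO over Control) of each tested gene of the 8 members and of 7 fixed lists, coloured by the edgeR call, with list medians as bars and 2 genes without Control reads at their lower bound (open triangles). Replication and mitosis genes lie to the right of 0, while readers and methyl donor genes fall on both sides.

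Between genes, levels were compared on the TPM scale, which divides by length. In Control the order from high to low was Uhrf2 (39.5 and 47.7 TPM), Tet3 (35.4 and 39.6), Dnmt1 (28.9 and 35.1), Tet2 (25.9 and 27.0), Dnmt3a (20.0 and 14.8), Uhrf1 (7.18 and 3.5), Tet1 (3.79 and 3.54) and Dnmt3b (2.90 and 3.47). Neighbours whose libraries overlapped were Uhrf2 and Tet3, and Uhrf1 and Tet1. In PRC1 i2KO the top 4 were Tet3 (46.1, 50.0 and 48.1 TPM), Dnmt1 (44.4, 48.8 and 42.4), Uhrf2 (41.5, 45.4 and 41.4) and Uhrf1 (35.0, 41.8 and 36.4), each overlapping the next. Below them came Tet2 (24.9, 22.8 and 20.9 TPM), Dnmt3a (10.7, 11.7 and 19.3), Dnmt3b (4.33, 4.32 and 2.39) and Tet1 (1.06, 2.76 and 0.85), of which only Dnmt3b and Tet1 overlapped. Uhrf1 thus overlapped Tet1 in Control and Uhrf2 in PRC1 i2KO, where it lay below every library of Dnmt1 and Tet3. The summed TPM of the 3 methyltransferases was 51.8 and 53.4 in Control and 59.5, 64.8 and 64.0 in PRC1 i2KO (exact permutation p = 0.1). Dnmt1 held 55.8% and 65.7% of that sum in Control and 74.7%, 75.3% and 66.1% in PRC1 i2KO (exact permutation p = 0.2).

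**Figure D4:**
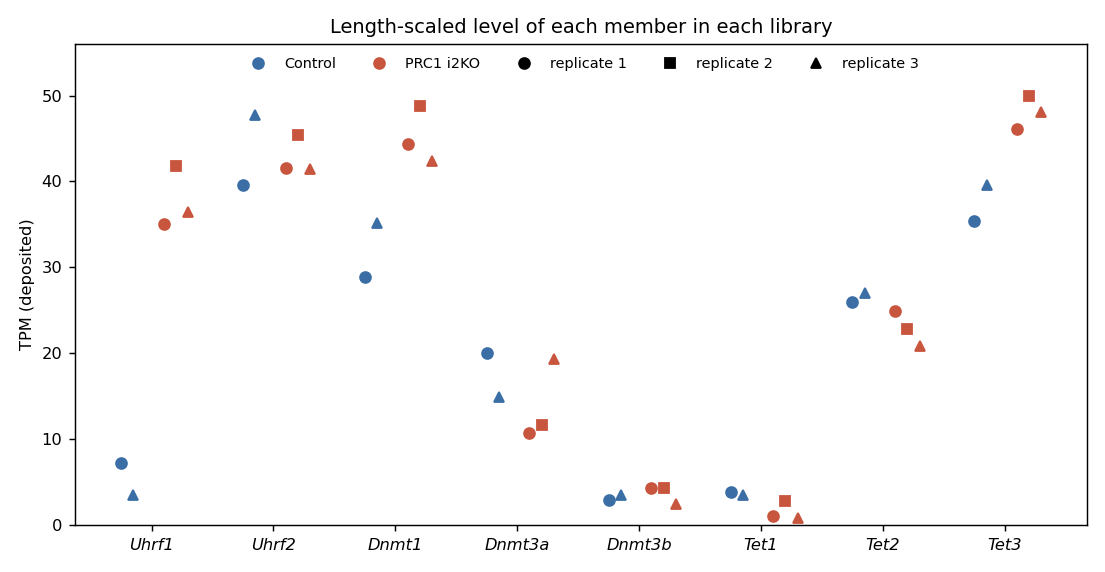
Deposited TPM (y axis, from 0) of the 8 genes in each library, with colours for groups and symbols for replicates. Uhrf1 moves from at most 7.18 TPM in Control to between 35.0 and 41.8 TPM in PRC1 i2KO, where it overlaps Uhrf2 and lies below Dnmt1 and Tet3.

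Reads and TPM differed in the size of the change for some genes. The ratio of reads to TPM follows the length of the transcript forms to which the authors' estimate assigned the reads, and it is given here relative to the median gene of the same library. For Tet1 it was 1.24 and 1.60 in Control and 4.51, 1.49 and 4.31 in PRC1 i2KO. PRC1 i2KO replicates 1 and 3 were high and replicate 2 lay among the controls, so the groups overlapped. The TPM of Tet1 was below both controls in all PRC1 i2KO libraries although its reads were not. Among 9918 genes with at least 50 reads and 0.5 TPM in every library, 0.202% had a wider span between the highest and the lowest library than Tet1, which was 3.65-fold. For Dnmt3a the ratio was 2.52 and 3.08 in Control and 3.61, 3.07 and 1.92 in PRC1 i2KO, a span of 1.88-fold that 4.28% of these genes exceeded. For Uhrf1 it was 0.85 and 1.37 in Control and 1.33, 1.25 and 1.13 in PRC1 i2KO. None of the 8 genes had ratios that did not overlap between groups, as 32.6% of these genes had. The files give no values per transcript form, so which forms were present was not tested.

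**Figure D5:**
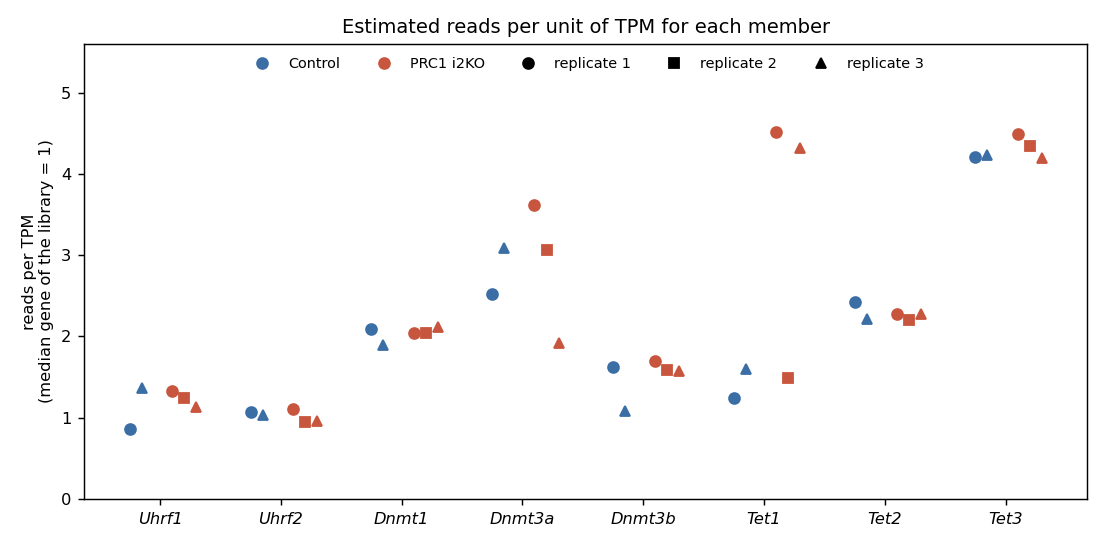
Estimated reads per unit of TPM (y axis, median gene of each library set to 1) for the 8 genes in each library. Tet1 stands at 4.51 and 4.31 in PRC1 i2KO replicates 1 and 3 and at 1.60 or less in the other libraries, while Tet3, Tet2, Dnmt1 and Uhrf2 vary by at most 1.16-fold.

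The genes most like each of the 8 in profile were found from log2 CPM centred over the 5 libraries, by the root mean square difference. For Uhrf1 these were Cdc20, an activator of the anaphase-promoting complex (0.069), and Stmn1, a microtubule regulator (0.081), and these 2 alone lay within 0.1. For Dnmt1 they were Echs1 and Ran (0.024 and 0.027), with 196 genes within 0.1. For Tet3 they were Pa2g4 and Prr7 (0.023 and 0.027), with 309 genes within 0.1. Dnmt3b was nearest to Cntln and Man1a (0.086 and 0.10), Dnmt3a to Tvp23b and Fbxl20, Uhrf2 to Fbxo45 and Car5b, Tet1 to Phlpp2 and Adprh, and Tet2 to Aifm2 and Bhlhb9. With 5 libraries in 2 groups this likeness rests largely on the group difference, so it is a description only.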

How the data were processed

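RNA of sorted cells from 5 libraries was analysed from a deposited table of 55357 genes. Per the file headers, the authors deposited an expected count and a TPM per gene and library; fractions among the former show that they are estimates. The authors' TPM is scaled by gene length and carries no depth. Tools named in the submitters' processing notes are RSEM 1.3.3, STAR 2.7.9a and DESeq2 1.38.2, with build mm39 and no roles. Strand setting and annotation: not given in the sources used here. Expected counts were rounded, filtered with filterByExpr, scaled with TMM and tested with edgeR 4.0.16 (R 4.3.3), genotype as the only term, robust dispersions, and Benjamini-Hochberg adjustment over 15665 genes. SE is the log2 fold change divided by the square root of F. Alternatives used DESeq2 1.42.0, limma 3.58.1 on log2(TPM + 1) or log2(TPM + 0.1), other filters and scalings, single libraries left out and a replicate block. The fit was tested on simulated data. Log2 CPM used a prior count of 2.

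The 8 genes and all lists were chosen with earlier results of these data known. The rule for named genes took the 8 genes, Ring1 and Rnf2, every called gene of 5 pathway lists, the 3 replication and 3 mitosis genes with the smallest adjusted p, germline genes with at least 1 CPM in a library, and the 2 genes nearest in profile to each of the 8. Other genes named were chosen after their values were seen. Some called genes of the pathway lists are not reported here by name. Counting by expectation shares reads between similar genes. Annotated genes overlapping the 8 had at most 29 reads over all libraries, and reads of antisense pairs cannot be told apart where strand was not used. No 2 libraries agreed within sampling noise. Floors and intervals (95%, exact) cover counting error only.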

Additional observations from a re-analysis of the deposited data

How the results depend on the processing

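The rises of Uhrf1, Dnmt1 and Tet3 kept their calls under other scalings, filters, DESeq2 and each left-out library. On the deposited TPM only 1 of the 8 genes, Uhrf1, was called under each of the 3 TPM settings, with adjusted p up to 0.0110; those of Dnmt1 reached 0.111 and those of Tet3 0.160. The cause was not tested. On log2(TPM + 1) the median gene stood at -0.13, and relative to it Dnmt1 was at 0.62, Tet3 at 0.48 and Uhrf2 at 0.11. Of the 62 other pathway genes, 27 were called, against 15 on log2(TPM + 1), 13 on log2(TPM + 0.1) and 13 without a filter, and 16 to 30 with 1 library left out. Over all genes, 5310 were called, against 2928 on log2(TPM + 0.1), 2935 on TPM without a filter, and 3322 to 5856 with 1 library left out. Directions turned for values that were not called. Uhrf2 turned to -0.023 on all 3 TPM settings, and ran from -0.040 to 0.17 with 1 library left out. Sycp1 turned to -0.24, -0.72 and -0.24 on TPM, and ran from -0.67 to 5.45 with 1 library left out. Piwil2 turned to -0.014 with DESeq2, to -0.11, -0.12 and -0.11 on TPM and to -0.32 with each replicate block, and ran from -0.63 to 1.00 with 1 library left out.

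Titles number the controls 1 and 3 and the PRC1 i2KO libraries 1, 2 and 3, while the description of Control replicate 3 carries another number. Deviations from group means correlated across genes at 0.07 for number 1 and 0.11 for number 3. Crossed, they were -0.11 for Control 1 with PRC1 i2KO 3 and -0.07 for Control 3 with PRC1 i2KO 1. With 2 controls, the deviation of 1 is the negative of the other, so crossed values only mirror the matched ones. These correlations therefore cannot tell whether a shared number marks a shared origin. With the replicate block 3 of the 8 genes, 22 pathway genes and 4421 genes in all were called, and on libraries 1 and 3 alone 3, 20 and 4241. Rnf2 was not called under the block.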

Other observations

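Germline genes whose promoters are known to be methylated in somatic cells were read as a fixed list of 18. Summed, they reached 51.1 and 26.0 CPM in the controls against 40.6, 35.3 and 19.3 CPM in the PRC1 i2KO libraries, with overlap. Only 4 had enough reads to test, of which none rose, 1 fell and 3 did not pass. Tdrd1, a Tudor gene of the piRNA pathway, fell from 8.49 and 9.14 CPM to 2.80, 2.30 and 3.0 CPM (log2 fold change -1.71, SE 0.31, edgeR adjusted p = 0.00235). Piwil2, which encodes a PIWI protein, stood at 37.0 and 11.9 CPM in Control and at 33.6, 30.4 and 8.37 CPM in PRC1 i2KO (edgeR adjusted p = 0.991). The lowest library of each group was its replicate 3. Brdt, a testis bromodomain gene, ranged from 2.63 to 5.74 CPM over the libraries, with overlap (edgeR adjusted p = 0.655). Sycp1, a synapsis gene, had reads only in replicate 3 of each group, at 0.59 and 1.05 CPM (edgeR adjusted p = 0.982). Of the 14 genes not tested, 8, among them Dazl, Mael and Dppa3, had 0 reads in all 5 libraries, a floor of 0.0745 CPM for Control and 0.0601 CPM for the PRC1 i2KO group. Tex19.1 had 1 read in Control and 13 reads in PRC1 i2KO, a ratio of 10.5 with a counting interval from 1.58 to 446. By library it had 1 and 0 reads in Control and 5, 0 and 8 reads in PRC1 i2KO. The groups thus overlapped, and the pooled interval leaves out the spread between libraries.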
